A study of Mus musculus with 6 samples.

Results

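The genes described here move water, protons, bicarbonate, chloride, sodium and potassium across epithelia. They are 39 genes in 8 role groups: carbonic anhydrases, aquaporins, SLC26 anion exchangers, transporters of the SLC4, SLC9 and SLC12 families, chloride channels, subunits of the epithelial sodium channel, Na,K-ATPase beta subunits with FXYD proteins, and potassium channels. They were listed by name as genes of uterine fluid, by a rule that names no measured value, although the list was drawn up with earlier results of these data known. Each was read from the probe set, among those annotated to that symbol alone, with the highest mean over the 6 arrays. Of the 39 genes, 37 had such a probe set, out of 18193 genes measured in this way, and Slc26a9 and Slc4a7 were not analysed here.

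Uterine horns of C57BL6J mice were compared on Affymetrix Mouse Genome 430 2.0 arrays. The control group, which the labels call wild-type, was SF1LsL/+, so it carried the conditional SF1 allele without Cre. The SF1 group was Pgrcre/+ SF1LsL/+. There, Cre made from the Pgr locus permits SF1 expression in cells that express the progesterone receptor. SF1 is the nuclear receptor of steroid-producing organs encoded by Nr5a1. There were 3 arrays a group. Each was hybridised with RNA pooled from 2 uteri, dissected 2 weeks after a surgery, without the cervix. The kind of surgery and the ages are not given in the sources used here. Both groups shared the SF1LsL allele, whereas only the SF1 group carried Cre at the Pgr locus, so SF1, Cre and Pgr dose cannot be told apart. No label states which pools were processed together, so p-values measure the spread between these 3 pools a group.

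The volume and composition of uterine fluid rest on a balance between secretion and absorption by the luminal and glandular epithelium. Chloride is loaded into the cell by the cotransporter NKCC1 and leaves at the lumen through CFTR and calcium-activated channels, bicarbonate is supplied by carbonic anhydrases and anion exchangers, and sodium is taken up from the lumen by the epithelial sodium channel. The Na,K-ATPase and potassium channels of the cell set the driving force, and water follows through the membrane and through aquaporins. In the rodent uterus estrogen is known to favour secretion with high Cftr, and progesterone to favour sodium and fluid absorption.

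The table holds linear probe set intensities (intensity units below), and the median of an array lay between 149.9 and 162.2. The brighter probe set for Nr5a1 read 152 ± 17.4 in control and 151 ± 0.131 in SF1 (SD, n = 3). Whether that probe set can see the transgene is unknown here, so it does not check the labels. Pgr fell from 4797 ± 89 to 1893 ± 158. All 10 uterine marker genes (Esr1, Pgr, Hoxa10, Hoxa11, Foxa2, Wnt7a, Hand2, Des, Myh11 and Emx2) read above the median probe set mean of 160.3, while 6 of 9 markers of stratified squamous epithelium, the lining of cervix and vagina, read below it. The ratio of 3' to 5' signal for beta-actin, a sign of RNA quality, lay between 2.38 and 2.58 in control and between 2.12 and 2.34 in SF1 (two-sided exact permutation p = 0.1, which is the floor for 3 against 3). For Gapdh it overlapped, between 1.53 and 1.70 in control and between 1.47 and 1.66 in SF1 (exact permutation p = 0.3). The part of RNA quality in the results was not tested.

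Of the 37 measured transport genes, 8 were called higher and 8 lower in SF1 (limma, Benjamini-Hochberg adjusted p under 0.05 over all 45037 probe sets). That is 43.2% of them, where 16.6% of all 18193 genes were called, and since the list was drawn up with earlier results known, the 2 shares only describe it. By direction, 21.6% were higher against 8.45% of all genes, and 21.6% lower against 8.11%. The median log2 difference without its sign was 0.33, against 0.15 for all genes. Among the 21 transport genes above the median probe set, 13 were called, where 20.8% of all genes that bright were called. The 16 dimmer ones gave 3 calls, or 18.8%, beside the 16.6% of all genes of any brightness. The share among all genes that dim was not counted, but it lies below 16.6%, since 20.8% of the brighter genes were called. In each of the 16 called genes, no SF1 array overlapped a control array. The groups did not overlap in 25 of the 37 genes, or 67.6%, against 39.9% of all genes. In 11 of these SF1 was higher (16.3% of all genes) and in 14 lower (23.7% of all genes). The calls ran in both directions within the carbonic anhydrases, within the SLC26 exchangers and within the group of Na,K-ATPase and FXYD genes.

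**Figure D1:**
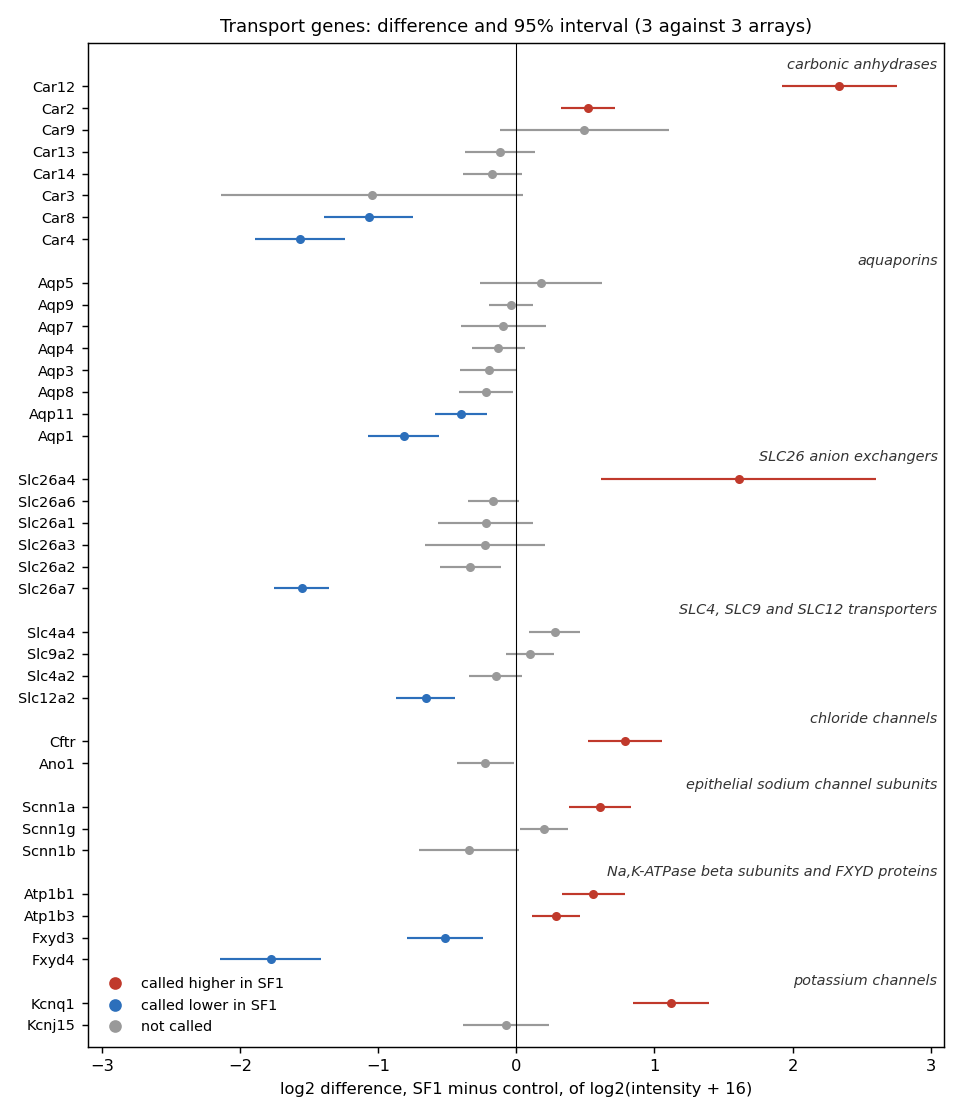
Log2 difference (SF1 minus control) of log2(intensity + 16) for the 37 measured transport genes by role group, with the limma 95% interval from 3 arrays a group. Car12, at 2.34, and Fxyd4, at -1.78, lie at the ends of the range on this scale, and 21 genes in grey were not called.

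The promoters of these 2 genes at the ends of the range are shown as the reference sequence that lies at their start sites. Each window holds 250 bases before and 50 after the annotated start, on the strand of the gene (RefSeq, GRCm38.p6). The letters AAGGTCA, the core that SF1 binds, were searched on both strands, and any match is in capitals.

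Car12, chr9:66713436-66713735, plus strand: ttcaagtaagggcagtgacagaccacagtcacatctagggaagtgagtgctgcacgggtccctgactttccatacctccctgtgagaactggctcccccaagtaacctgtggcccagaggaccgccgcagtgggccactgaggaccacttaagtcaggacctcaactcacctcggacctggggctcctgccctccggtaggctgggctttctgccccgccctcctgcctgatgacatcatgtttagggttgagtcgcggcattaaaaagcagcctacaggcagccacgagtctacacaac

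Fxyd4, chr6:117937286-117937585, minus strand: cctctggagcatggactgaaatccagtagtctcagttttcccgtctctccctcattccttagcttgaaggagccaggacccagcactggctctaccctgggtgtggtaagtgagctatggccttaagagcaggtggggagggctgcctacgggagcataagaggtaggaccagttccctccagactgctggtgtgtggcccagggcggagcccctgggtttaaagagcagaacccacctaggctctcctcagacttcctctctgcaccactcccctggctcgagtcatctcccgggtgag

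Neither window holds AAGGTCA. Of the 39 genes, 28 had a promoter in the RefSeq table. A match was found in 2 of these 28 genes (7.14%), against 5.38% of all 27025 genes with a promoter there and 4.72% of all 32851 promoters. Both were sulfate or chloride transporters that were not called, Slc26a1 and Slc26a3. The match begins 6 bases before the start site in Slc26a1 and 134 bases before it in Slc26a3, and the surrounding bases are shown to place it.

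Slc26a1, chr5:108674781-108674817, minus strand: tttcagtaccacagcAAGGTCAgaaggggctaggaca

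Slc26a3, chr12:31438070-31438106, plus strand: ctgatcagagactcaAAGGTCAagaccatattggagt

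Of the 10 called genes with a promoter in the table, 5 higher and 5 lower, 0 had a match. These counts describe the letters in these windows only.

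Carbonic anhydrases, which interconvert carbon dioxide and bicarbonate, split by member: Car12 and Car2 rose, Car4 and Car8 fell, and 4 were not called. Car12 encodes an enzyme that spans the membrane and works outside the cell. In replicate order, the control arrays read 92.9, 84.4 and 68.3 intensity units and the SF1 arrays 505, 607 and 352, and values below keep this order. Every SF1 array was far above every control array, and the SF1 arrays differed among themselves more than those of control. The log2 difference was 2.34 ± 0.18 (SE; limma adjusted p = 9.1e-05), and the means stood 5.96-fold apart. Another Car12 probe set also rose, by 0.85, and the dimmest was not called.

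Car2 is the abundant cytosolic carbonic anhydrase. It read 2526, 2324 and 2366 in control and 3776, 3243 and 3361 in SF1, so the rise was modest and present in all 3 arrays (log2 difference 0.52 ± 0.09, limma adjusted p = 0.00515).

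Car4 encodes an enzyme tethered to the outer cell surface by a lipid anchor and is known from capillary endothelium as well as from epithelia. It read 187, 219 and 175 in control and 52.7, 70.2 and 43.2 in SF1. All SF1 arrays lay below all control arrays, with a log2 difference of -1.57 ± 0.14 (limma adjusted p = 0.00019), and its other probe set also fell (-0.82). Car8 encodes a carbonic anhydrase relative without the enzyme activity, which binds the inositol trisphosphate receptor. It read 688, 874 and 721 in control and 421, 292 and 356 in SF1 (-1.07 ± 0.14, limma adjusted p = 0.00154). Its other 2 probe sets fell as well.

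Car3 encodes a cytosolic enzyme of low activity that is abundant in fat and muscle. It was not called, although its log2 difference was -1.05, with an interval from -2.14 to 0.05 (limma adjusted p = 0.184). The values were 7598, 11013 and 8849 in control and 8198, 5859 and 1739 in SF1. SF1 replicate 1 lay inside the control range, and SF1 replicate 3 stood apart. Without SF1 replicate 3 the difference was -0.38 (adjusted p = 0.251). Fat cell markers were low in the same array. The 12 measured markers summed to between 15706 and 21669 in control and to 15824, 12362 and 5585 in SF1 replicates 1 to 3, and Adipoq, the fat cell hormone adiponectin, read 2748, 1505 and 405 there. Of those 12 markers, 3 were called lower and 0 higher. Their part in the Car3 values was not tested.

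Car9, an extracellular enzyme known to respond to low oxygen, read between 65.4 and 86.6 in control and 96.3, 192 and 72.9 in SF1, with SF1 replicate 2 apart from the others (log2 difference 0.49, adjusted p = 0.254). Cytosolic Car13 (-0.12) and membrane-bound Car14 (-0.17) had intervals from -0.37 to 0.14 and from -0.39 to 0.04.

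**Figure D2:**
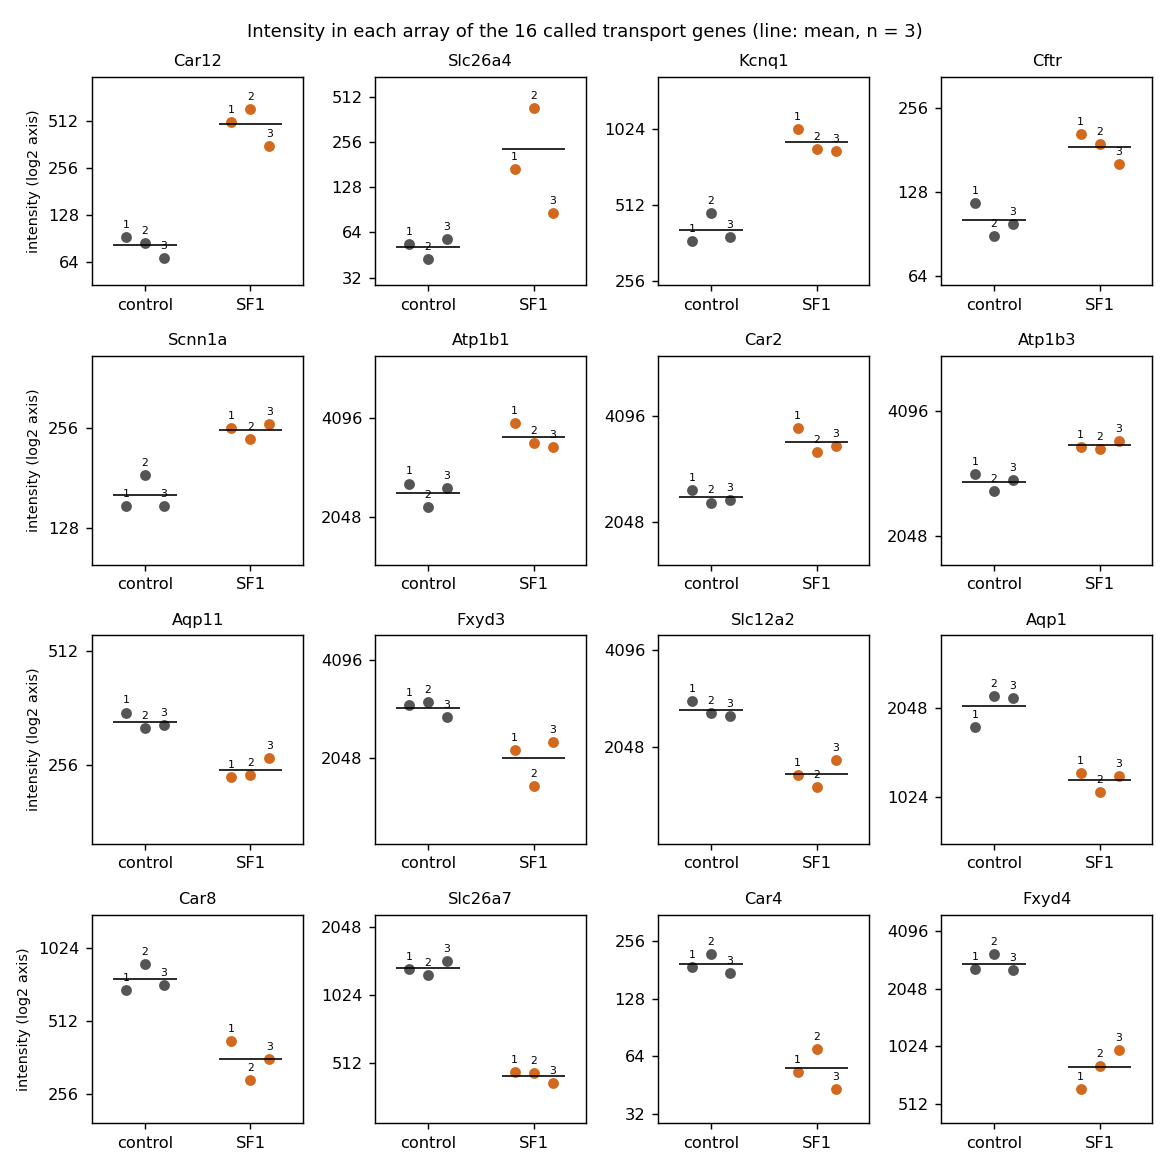
Intensity (log2 axis) in each array for the 16 called transport genes, ordered from the highest to the lowest log2 difference. Points are arrays numbered by replicate and lines are group means (n = 3). The groups do not overlap in any of the 16 panels, and Slc26a4 shows the widest spread among SF1 arrays.

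Of 8 aquaporins, 2 fell, 0 rose and 6 were not called. Aqp1 encodes a water channel of capillary endothelium and of many epithelia. It read 1775, 2261 and 2221 in control and 1238, 1069 and 1213 in SF1. The groups did not overlap, and the log2 difference was -0.82 ± 0.11 (limma adjusted p = 0.00195). Markers of endothelium moved the same way as Aqp1 and Car4: of 14 measured, 12 fell and 0 rose, and their summed level was between 12533 and 13002 in control and between 7725 and 8355 in SF1. Sox17 read highest of the 14, at 4217 ± 237 in control and 2025 ± 137 in SF1, so it weighs most in that sum. The next brightest, Kdr, read 1362 ± 76.9 in control and 940 ± 78 in SF1. Whole tissue does not show which cells Sox17 was read from, so its share of the sum need not come from endothelium. The part of these markers in the 2 falls was not tested. In RNA of whole tissue, fewer cells of a type and less RNA per cell cannot be told apart. Red blood cells also carry Aqp1. Of 10 listed markers of them, 6 had a probe set of their own, of which limma called 0 (1 at an unadjusted p under 0.05), and these summed to between 444 and 482 in control and between 398 and 446 in SF1. All 6 read below the median probe set mean, so the lack of calls says little about red blood cells. The part of red blood cells in the Aqp1 values was not tested.

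Aqp11 encodes an intracellular aquaporin whose loss is known to cause kidney cysts. It read 352, 321 and 325 in control and 237, 240 and 267 in SF1 (-0.40 ± 0.08, limma adjusted p = 0.0138). The adjusted p passed 0.05 when control replicate 1 (adjusted p = 0.0573), SF1 replicate 1 (0.0564) or SF1 replicate 2 (0.0509) was left out, and its other 2 probe sets were not called.

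Aqp5, the water channel of secretory glands, read 231, 121 and 205 in control and 196, 220 and 203 in SF1. Control replicate 2 was low and the other 5 arrays lay close together, and the difference turned from 0.18 (adjusted p = 0.56) to -0.07 without that array. Aqp8, another water channel, was also not called, although its groups did not overlap: it read between 67.1 and 80 in control and between 61.2 and 65.3 in SF1 (adjusted p = 0.131). Aqp4 and the aquaporins that also pass glycerol, Aqp3, Aqp7 and Aqp9, had log2 differences between -0.20 and -0.04 and adjusted p-values between 0.183 and 0.754. All of the 6 uncalled aquaporins except Aqp5 read below the median probe set mean.

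Among the SLC26 anion exchangers, 1 of 6 measured genes rose, 1 fell and 4 were not called. Slc26a7 encodes a chloride transporter and exchanger known from stomach and kidney epithelium. It read 1341, 1254 and 1451 in control and 465, 464 and 417 in SF1. The arrays of each group lay close together, the groups were far apart, and the log2 difference was -1.55 ± 0.09 (limma adjusted p = 1.9e-05), or 3-fold in the means. Its dimmer probe set, between 45.4 and 70.5, was not called.

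Slc26a4 encodes pendrin, which exchanges chloride for bicarbonate or iodide. It read 53.6, 42.5 and 57.5 in control and 168, 434 and 86.5 in SF1. All SF1 arrays were above all control arrays, but SF1 replicate 2 read highest by far. The log2 difference was 1.61 ± 0.44 (limma adjusted p = 0.0426), with an interval from 0.62 to 2.60. Without SF1 replicate 2 it was 1.04 (adjusted p = 0.0324), and without SF1 replicate 3 it was 2.11 (0.00749). The call was lost without SF1 replicate 1 (0.101) or without control replicate 1 (0.0976), 2 (0.0894) or 3 (0.0872). It was also lost with a pseudocount of 1 (0.0578) or 64 (0.055) in place of 16, or with a variance trend and robust shrinkage (0.157). SF1 replicate 2 also stood apart in neutrophil markers. The 9 measured markers summed to 23298 there, to 1186 and 892 in SF1 replicates 1 and 3, and to between 704 and 1334 in control. S100a8 and S100a9, at 11518 and 9468 in SF1 replicate 2, made up most of that sum. Csf3r, Cxcr2, Ngp, Camp and Il1r2 also read highest in that array, while Mpo and Elane, at 87.6 and 64.1, lay inside their control ranges. Of these 9 markers limma called 0, and 0 had an unadjusted p under 0.05. Their part in the Slc26a4 values was not tested.

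Slc26a2, a sulfate transporter, lay just outside the threshold. It read 608, 538 and 584 in control and 425, 430 and 511 in SF1, without overlap (-0.33 ± 0.10, limma adjusted p = 0.0537), and another of its 3 probe sets was called lower (-0.41, adjusted p = 0.026). The other sulfate transporter, Slc26a1, and the chloride-bicarbonate exchangers Slc26a3 and Slc26a6 had log2 differences between -0.23 and -0.17 and were not called.

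**Figure D3:**
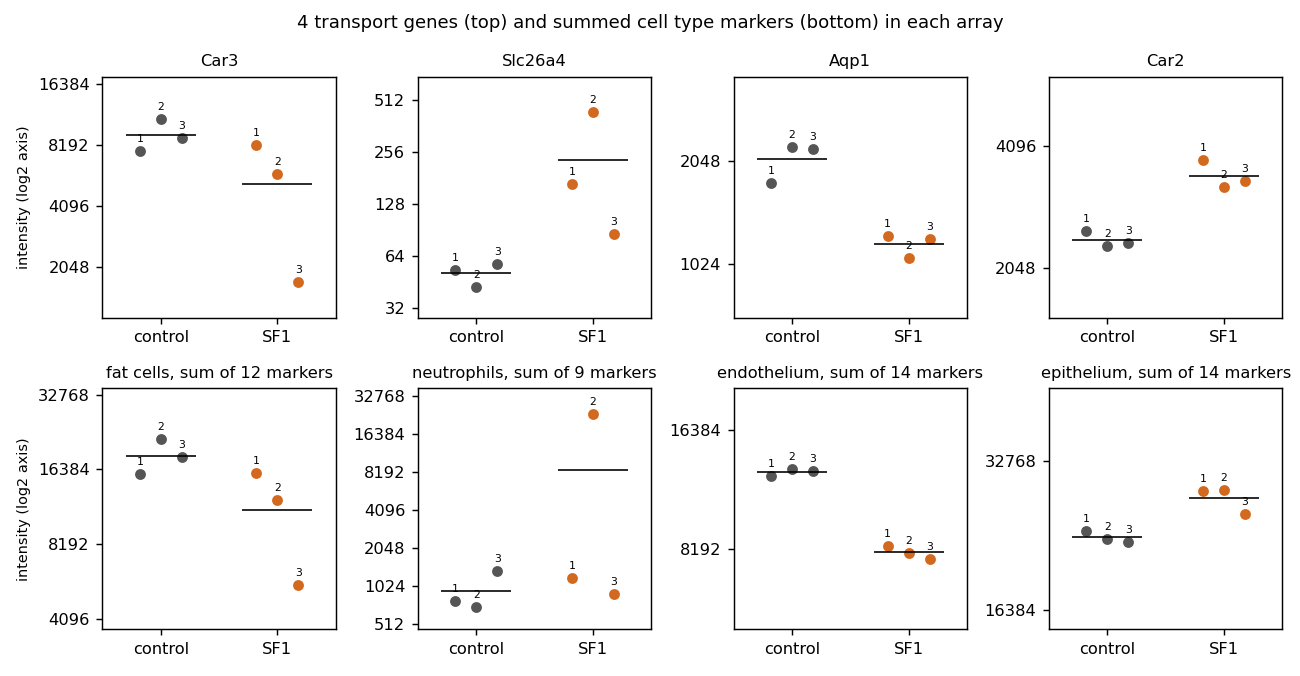
Intensity (log2 axis) of Car3, Slc26a4, Aqp1 and Car2 in each array (top) and the summed intensity of cell type markers in the same arrays (bottom). Points are arrays numbered by replicate and lines are group means (n = 3). Car3 and the fat cell sum (12 markers) are both lowest in SF1 replicate 3, Slc26a4 and the neutrophil sum (9 markers) are both highest in SF1 replicate 2, and Aqp1 and the endothelial sum (14 markers) are lower in all 3 SF1 arrays.

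Of the 3 genes for chloride entry and exit, Slc12a2 fell, Cftr rose and Ano1 was not called. Slc12a2 encodes NKCC1, which brings sodium, potassium and chloride into the cell from the blood side. It read 2845, 2622 and 2557 in control and 1677, 1542 and 1865 in SF1. The groups did not overlap, and the log2 difference was -0.66 ± 0.09 (limma adjusted p = 0.00231). Its other 2 probe sets fell by similar amounts, with log2 differences of -0.62 and -0.65.

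Cftr encodes the cyclic AMP-regulated channel through which chloride and bicarbonate leave the cell. It read 116, 88.6 and 97.9 in control and 206, 190 and 161 in SF1. All SF1 arrays were higher, with a log2 difference of 0.79 ± 0.12 (limma adjusted p = 0.00298), while a very dim Cftr probe set, between 4.68 and 10.9, was not called. Ano1 encodes the calcium-activated chloride channel, known from secretory epithelia and from pacemaking in smooth muscle. It was read by a bright probe set at 2450, 2593 and 2560 in control and 2201, 1950 and 2362 in SF1. The groups did not overlap, but the fall was small and not called (-0.23, with an interval from -0.43 to -0.02 and an adjusted p of 0.135).

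Slc4a4, Slc4a2 and Slc9a2, the other measured genes of the SLC4, SLC9 and SLC12 group, were not called. Slc4a4, the sodium-bicarbonate cotransporter that feeds secretion, lay just outside the threshold. It read 290, 260 and 295 in control and 336, 359 and 340 in SF1, all higher (0.28 ± 0.08, limma adjusted p = 0.0537), and its other 4 probe sets were not called. The anion exchanger gene Slc4a2 (-0.15, interval from -0.34 to 0.04) and the sodium-hydrogen exchanger gene Slc9a2 (0.10, interval from -0.07 to 0.27) had smaller differences.

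Of the 3 subunits of the epithelial sodium channel, the route of sodium uptake from the lumen, 1 rose. Scnn1a encodes the alpha subunit. It read 149, 185 and 150 in control and 256, 238 and 263 in SF1. The rise was seen in all 3 arrays (0.60 ± 0.10, limma adjusted p = 0.0046). The beta subunit gene Scnn1b read 301, 179 and 262 in control and 190, 186 and 188 in SF1. Its SF1 arrays were nearly equal, and control replicate 2 lay below them while the other 2 control arrays lay above. With all 6 arrays Scnn1b was not called (-0.34, adjusted p = 0.192), and without control replicate 2 it was called lower (-0.54, adjusted p = 0.00716). Control replicate 2 was thus the lowest of the 6 arrays for both Aqp5 and Scnn1b. The gamma subunit gene Scnn1g read between 57.3 and 64.6 in control and between 69.5 and 73.5 in SF1, without overlap and without a call (0.20, adjusted p = 0.12).

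The Na,K-ATPase group was called in full, the beta subunits higher and the FXYD proteins lower. Beta subunits carry the pump to the membrane, and FXYD proteins are small membrane proteins that tune it. Atp1b1 read 2588, 2192 and 2501 in control and 3967, 3432 and 3341 in SF1 (0.56 ± 0.10, limma adjusted p = 0.00737). It rose on 4 of its 5 probe sets, and the fifth was dim and not called.

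Atp1b3 rose least, from 2881, 2619 and 2784 to 3357, 3319 and 3458 (0.29 ± 0.08, limma adjusted p = 0.0379). Its groups did not overlap, yet its call was lost in all 6 fits that left out 1 array, with adjusted p-values of 0.067, 0.102 and 0.0782 without control replicates 1, 2 and 3 and of 0.0977, 0.0816 and 0.107 without SF1 replicates 1, 2 and 3. It was also lost after quantile normalization (0.0629) or with a pseudocount of 1 (0.054).

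Fxyd4 encodes CHIF, named as a corticosteroid-induced factor of kidney and colon, which raises the pump's affinity for sodium. It read 2586, 3104 and 2555 in control and 615, 809 and 981 in SF1. On the log2(intensity + 16) scale this was the largest fall among the 37 genes (-1.78 ± 0.16, limma adjusted p = 0.000189), while by the fold between group means Car4, at 3.50-fold, fell slightly more than Fxyd4, at 3.43-fold. Fxyd3 encodes another pump modulator of epithelia. It read 2966, 3035 and 2728 in control and 2165, 1680 and 2300 in SF1, lowest in SF1 replicate 2 (-0.51 ± 0.12, limma adjusted p = 0.0253). Leaving out SF1 replicate 1 (adjusted p = 0.0528) or control replicate 1 (0.078) or 2 (0.0602) ended the Fxyd3 call.

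Kcnq1 encodes a potassium channel that works with KCNE subunits in many secretory epithelia. It read 369, 475 and 383 in control and 1030, 856 and 840 in SF1. Every SF1 array was well above control, with a log2 difference of 1.12 ± 0.12 (limma adjusted p = 0.000481). Kcnj15, an inward rectifier, was dim, between 62.5 and 92.7, and was not called (-0.07, interval from -0.39 to 0.24).

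Many of these genes are known from epithelia, but RNA of whole tissue does not show which cells they were read from. Epithelial markers also moved. Of 14 measured epithelial markers, 5 rose (Krt7, Cdh1, Cldn4, Epcam and Cldn7) and 1 fell (Krt19), and their sum was between 22514 and 23666 in control and between 25644 and 28703 in SF1. Gland markers summed to between 7774 and 9422 in control and between 3840 and 4659 in SF1. Of these 10, 4 were lower, 1, Foxa2, was higher and 5 were not called, and 3 lay below the median probe set. Sult1d1 (3392 ± 567 in control, 785 ± 99.3 in SF1) and Aldh1a1 (2861 ± 229 and 1629 ± 301) read highest in control. They weigh most in that sum, so it does not measure the amount of gland. Of 12 markers of ciliated cells, 11 rose. The part of these cell types was not tested.

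Within the SF1 group the order of the arrays differed between called genes. Of the 8 risen genes, 4 read highest in SF1 replicate 1, 2 in SF1 replicate 2 and 2 in SF1 replicate 3. The lowest reading of these 8 was in SF1 replicate 3 for 5, in replicate 2 for 3 and in replicate 1 for 0. Of the 8 fallen genes, 4 read lowest in SF1 replicate 2 and 2 in each of the others. Their highest reading was in SF1 replicate 3 for 4, in replicate 1 for 3 and in replicate 2 for 1. The spread between SF1 arrays was widest for Car3 and Slc26a4, with SDs of 1.17 and 1.08 on the log2 scale, and the median SD over the 37 genes was 0.12 in each group, against 0.10 for all genes.

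The remaining transport genes were counted from 10 lists of relatives and regulators. Of 103 measured, 13 rose and 12 fell, or 24.3%, against the 16.6% of all genes given above. The median log2 difference without its sign was 0.17. Among channel genes, Kcnma1, the large-conductance calcium-activated potassium channel, rose from 177 ± 8.79 to 602 ± 80.4 (1.67 ± 0.10, limma adjusted p = 2.87e-05). Kcne3, a beta subunit known to partner Kcnq1, fell from 313 ± 25.7 to 159 ± 17.5 (-0.92 ± 0.10), so the channel gene and this partner moved in opposite directions. Of the other KCNE genes listed, Kcne4 rose (0.36 ± 0.09, limma adjusted p = 0.0389), and Kcne1, Kcne2 and Kcne5 were not called. Of 14 other potassium channel genes 2 rose and 2 fell.

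Of 23 other chloride channel genes and partners, 2 rose and 5 fell. Clca1 fell (-1.28 ± 0.17, limma adjusted p = 0.00151) and Clca3a2 rose (1.53 ± 0.35, adjusted p = 0.0208). Clca3a2 read 76.8, 210 and 58.5 in SF1 replicates 1 to 3, highest in the same array as Slc26a4, and leaving out control replicate 1 (0.0567) or 3 (0.0569), or a variance trend with robust shrinkage (0.0884), ended its call. The other risen gene of that list, Slc9a3r1, encodes NHERF1, the scaffold that binds CFTR at the apical membrane. It rose from 527 ± 13.8 to 1059 ± 19.1 (0.99 ± 0.07), and it is named here although it was chosen after its values were seen.

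Of 12 regulators of the epithelial sodium channel, 3 rose and 2 fell. Sgk1, the kinase that keeps the channel at the membrane, rose (0.63 ± 0.14, limma adjusted p = 0.0176), a call that ended when SF1 replicate 2 (0.0637) or 3 (0.0552) or control replicate 1 (0.0649) was left out. Usp2, a deubiquitinase of the channel, fell (-0.58 ± 0.12, adjusted p = 0.0167), a call lost without SF1 replicate 1 (0.0502) or 2 (0.0549).

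Of 13 other cation-chloride cotransporters and their kinases, 3 rose and 1 fell. Stk39, the kinase SPAK that activates NKCC1, rose from 266 ± 13.9 to 381 ± 29.3 while Slc12a2 itself fell, and Slc12a5 rose at a low level from 83 ± 5.06 to 131 ± 15.2. Fxyd6 was the called gene among 7 other Na,K-ATPase and FXYD genes. It rose from 836 ± 56.4 to 1630 ± 213 (0.94 ± 0.11), against the direction of Fxyd3 and Fxyd4.

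In the smaller lists few genes were called. Car11 fell (-0.45) among 8 other carbonic anhydrases. Slc26a11 fell (-0.35) among 11 other anion transporters, a call that ended whichever of the 6 arrays was left out (adjusted p up to 0.125, without SF1 replicate 1), and also with median centring (0.0533) or a pseudocount of 1 (0.0546). The exchanger gene Slc9a7 rose (0.69) among 6 other sodium-hydrogen exchangers, and 0 of 4 other aquaporins were called by limma, where 0 of the 4 had an unadjusted p under 0.05. Atp6v1b1, a proton pump subunit of acid-secreting cells, rose from 30.5 ± 5.45 to 138 ± 24.9 (1.72 ± 0.14, limma adjusted p = 9.49e-05), and 4 other genes of that list were not called.

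**Figure D4:**
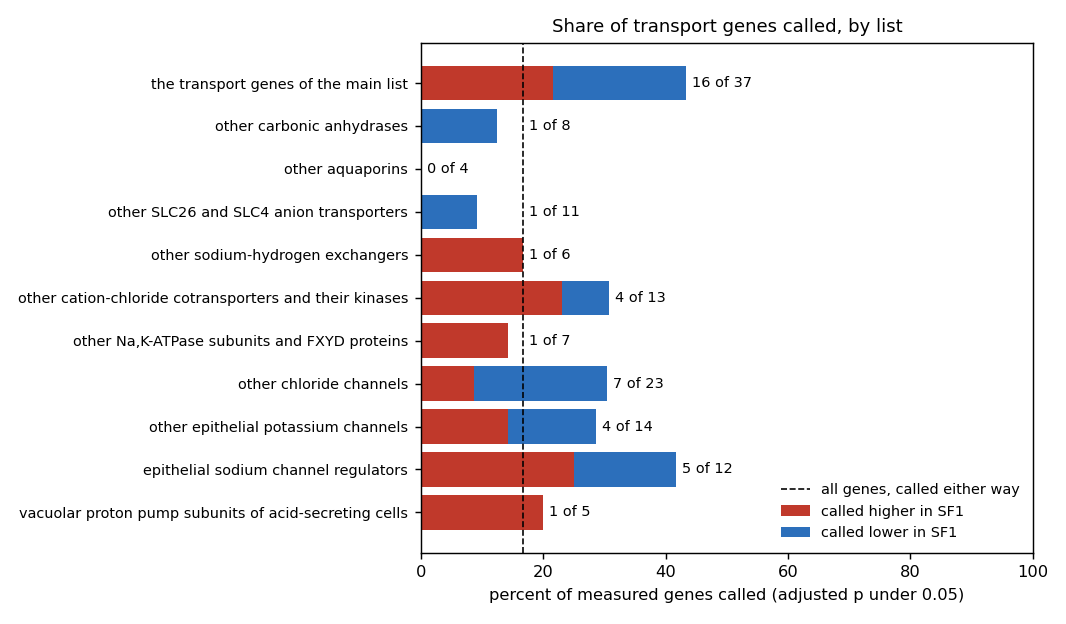
Percent of measured genes called higher (red) or lower (blue) in SF1, with the number called of the number measured, for the 37 transport genes and 10 lists of other transport genes. The dashed line marks the 16.6% of all genes called either way. The 37 genes reach 43.2%, and the lists lie between 0 of 4 and 5 of 12.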

How the data were processed

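The deposited table holds 1-colour probe set intensities on a linear scale. RNA of 2 uteri was pooled per array, per the labels' protocols. How the authors corrected background, normalized and summarized probes is stated nowhere in the labels, and would affect dim probe sets most. The number of arrays limits the precision.

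Of all probe sets, 64 Affymetrix controls were set aside and 45037 tested. By the annotation table of the platform, 34945 of these had 1 symbol, 932 several and 9160 none. The gene IDs of 37 measured members matched a GRCm38.p6 gene table. Intensities were fitted as log2(value + 16) with limma 3.58.1 (lmFit, eBayes) in R 4.3.3. The scale understates the fold changes of dim genes. P-values were adjusted by Benjamini-Hochberg over all tested probe sets. All adjusted p-values are from limma, and "called" means one under 0.05. Differences are log2 differences, ± gives an SE after a difference and an SD (n = 3) after an intensity. Python 3.11.15, pandas 2.3.3 and matplotlib 3.10.9 served tables and figures.

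The members and lists were chosen with earlier results of these data known. All measured members are named, and up to 2 called genes, those with the largest difference, from each other list. Slc9a3r1, Kcne1, Kcne2, Kcne4 and Kcne5 are named in addition, chosen after their values were seen. In simulated arrays with 200 of 45037 probe sets changed, 2% of 1.3-fold, 40% of 1.5-fold, 90% of 2-fold and 96% of 4-fold changes were called. In the data themselves 2650 probe sets were called higher and 3641 lower, which makes the Benjamini-Hochberg cutoff less strict than in the simulation. The simulated shares therefore do not give the recovery in the data. The alternatives were quantile normalization, median centring, brighter probe sets only, pseudocounts of 1 and 64, a replicate block, eBayes with trend and robust, averaged probe sets per gene, each array left out, a fold of at least 1.5, and an adjusted p under 0.01.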

Additional observations from a re-analysis of the deposited data

How the results depend on the processing

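Of the 16 called genes, 12 kept direction and call in every alternative fit that tested them, and 4 (Slc26a4, Atp1b3, Fxyd3 and Aqp11) lost the call in at least 1, with 0 reversed. The count of higher genes was 5 with a fold of at least 1.5 in addition, against 8, because Car2, Atp1b1 and Atp1b3 changed by less than that. Among the lower genes Aqp11 (-0.40) and Fxyd3 (-0.51) also fell short of that fold. At an adjusted p under 0.01, Slc26a4, Atp1b3, Aqp11 and Fxyd3 were not called. Leaving out 1 array gave between 6 and 7 higher and between 6 and 9 lower transport genes. For the lists of other transport genes it gave between 8 and 12 higher and between 5 and 9 lower, against 13 and 12. The lower count of those lists was 7 with median centring and 7 with the replicate block; the cause was not tested. In 2 settings chosen for these lists after seeing the data, 7 were higher and 3 lower with a fold of at least 1.5 in addition, and 8 higher and 5 lower at an adjusted p under 0.01, both of which are stricter by construction. With the replicate number as a block, 6 transport genes were higher and 7 lower, and Slc26a4, Atp1b3, Fxyd3, Slc26a11 and Usp2 were not called. Arrays with the same number did not deviate together (correlations of -0.04, -0.13 and -0.18), so the numbers were not taken to pair the samples.

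Of 21 uncalled genes, Slc26a2, Slc4a4 and Scnn1b were called in at least 1 alternative, and 7 changed sign. With the mean of probe sets the log2 difference was 0.028 for Car13, 0.048 for Aqp3 and 0.042 for Aqp9, and Aqp9 was also at 0.013 with median centring and 0.014 with quantile normalization. With 1 array left out, Aqp5 lay between -0.074 and 0.35, Aqp7 between -0.20 and 0.026, Slc26a3 between -0.36 and 0.019 and Kcnj15 between -0.19 and 0.051. Of all called probe sets, 42.1% were higher as deposited, 52.1% after quantile normalization and 56.5% after median centring. The 37 genes gave 8 higher and 8 lower, 8 and 8, and 9 and 8 in these settings. Low signal limits what can be read from the 16 genes at or below the median probe set. Of these 3, or 18.8%, were called, beside 16.6% of all genes of any brightness. The share among all genes that dim was not counted, and it lies below 16.6%, since 20.8% of the brighter genes were called.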
